A study of Mus musculus with 4 samples.

Results

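Fc gamma receptors bind the constant part of IgG, and through them phagocytes and NK cells can engulf or kill cells that antibody has coated. The 5 mouse genes Fcgr1, Fcgr2b, Fcgr3, Fcgr4 and Fcer1g were followed, chosen by name from 27998 genes. They were measured in tumour-infiltrating leukocytes of mice that had received antibodies to PD-1 and CTLA-4, inhibitory receptors of T cells. All 5 were in the gene table of every library, so no member was lost. The question asked of them was which myeloid and NK cells carry transcripts of receptors able to engage antibody-coated regulatory T cells, and in what proportion of activating to inhibitory receptor.

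Wild-type 129S6 mice, an inbred strain, carried transplanted tumours. They were injected with the combination of anti-PD-1 (clone RMP1-14) and anti-CTLA-4 (clone 9D9), with anti-PD-1 alone, with anti-CTLA-4 alone, or with rat IgG2a as the control, 200 µg each on days 3, 6 and 9 after transplant. Tumours were digested with collagenase, live CD45+ cells were sorted, and transcripts were counted cell by cell as unique molecular identifiers (UMIs, each 1 captured 3′ end). No label used here gives the age of the mice or the number of mice per library. Each group was 1 library, so there was no replicate check, antibody and library cannot be told apart, and no test was made between groups. Before the sort the cells had been incubated with Fc block, an antibody to CD16 and CD32, the proteins of Fcgr3 and Fcgr2b. All libraries received it, and its part in the counts was not tested.

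Fcgr1 encodes the high-affinity receptor FcγRI, Fcgr3 the low-affinity receptor FcγRIII and Fcgr4 the receptor FcγRIV, and these are the activating receptors. They signal through an adaptor, the common γ chain encoded by Fcer1g, whose activation motif (ITAM) recruits the kinase Syk. Fcgr2b encodes FcγRIIB, the inhibitory receptor, whose ITIM motif recruits the phosphatase encoded by Inpp5d. Mouse macrophages can carry all of them, whereas mouse NK cells are known for FcγRIII without the inhibitory receptor.

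Fcgr2b (chr1:170958617-170976547, minus strand), Fcgr4 (chr1:171018920-171029761, plus), Fcgr3 (chr1:171051174-171064935, minus) and Fcer1g (chr1:171229572-171234365, minus) lie near each other on chromosome 1, and Fcgr1 lies on chromosome 3 (chr3:96282909-96293969, minus; GRCm38, GENCODE M21). An annotated antisense gene, Gm38204, overlaps Fcgr2b. Of the 98-base windows in their annotated protein-coding transcripts, 48 were shared between Fcgr2b, which has 3860, and Fcgr3. Some of the shared windows lay in the last 700 bases of an annotated transcript, near the 3′ end that is captured. No other pair among the 5 genes shared any. Reads from that stretch could not be told apart, so levels of Fcgr2b and Fcgr3 carry that uncertainty.

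The upstream sequences of Fcgr1, whose level was highest in cells led by interferon-induced genes, and of Fcgr4, highest in neutrophil-like and macrophage cells, are shown as the 250 bases before the start in RefSeq (GRCm38.p6, a C57BL/6J reference and not the 129S6 strain of the mice). Capitals mark matches, on either strand, to the STAT site GAS (TTCNNNGAA), the core of the myeloid factor PU.1 (GAGGAA) and an interferon-response pair (TTTC and again TTTC, with 2 bases of any kind between). Fcgr1 lies at chr3:96293970-96294219, minus strand, and Fcgr4 at chr1:171018676-171018925, plus strand.
Fcgr1: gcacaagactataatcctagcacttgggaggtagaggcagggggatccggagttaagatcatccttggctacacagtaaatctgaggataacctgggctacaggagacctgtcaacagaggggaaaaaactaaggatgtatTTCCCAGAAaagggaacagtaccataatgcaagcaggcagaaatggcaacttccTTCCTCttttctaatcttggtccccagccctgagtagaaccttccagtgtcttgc
Fcgr4: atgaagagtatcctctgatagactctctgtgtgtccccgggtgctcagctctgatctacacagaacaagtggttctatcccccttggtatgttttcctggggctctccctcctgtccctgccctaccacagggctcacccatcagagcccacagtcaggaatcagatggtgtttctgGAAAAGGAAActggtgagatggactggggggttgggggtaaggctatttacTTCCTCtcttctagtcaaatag

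The GAS match of Fcgr1 starts at position -109 from the start and reads the same motif on both strands, and TTCNNNGAA was found in 7.02% of 32851 RefSeq promoter windows of that length. The PU.1 core, read on the minus strand as TTCCTC, starts at -55 in Fcgr1 and at -22 in Fcgr4, and 23.3% of windows hold it. Of the 6 windows of the 5 genes 4 hold it. Among them are the overlapping windows of Fcgr3, not shown, which hold the same site, at -6 or -15 depending on the annotated start. The 4 windows are thus not 4 separate sites. The interferon-response pair starts at -73 in Fcgr4, on the minus strand, and 2.98% of windows hold it. No window of the 5 genes held the NF-kB motif, the AP-1 letters TGANTCA, the CRE letters TGACGTCA or the C/EBP letters TTNCGCAA. These matches describe letters in the reference and not binding.

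The authors' table gave each cell 1 of 19 cluster numbers, and 14491 listed cells with 47589092 UMIs were used. A library held 3336 to 3945 cells, 11176246 to 13374294 UMIs and a median of 2549 to 2991 UMIs per cell. Markers that include no Fc gamma receptor gene named 5 clusters macrophage/monocyte-like (1, 2, 4, 7 and 15) and 5 T cell-like (3, 6, 8, 9 and 10). Cluster 5 was NK cell-like, cluster 12 neutrophil-like and cluster 18 tumour- or fibroblast-like, and the dendritic cell-like clusters were 11 (conventional), 16 (plasmacytoid) and 17 (migratory). Foxp3, the regulatory T cell factor, was the leading gene of cluster 10. Clusters 0, 13 and 14 stayed unnamed: cluster 0 carried 9 of 18 macrophage markers but Gm9733, Gpr141 and Gm4841 led it, cluster 13 carried markers of macrophages and of T cells, and cluster 14 carried 7 of 10 NK markers with granzyme genes such as Gzmg and Gzmf in the lead. Of the listed barcodes, 109 occurred in more than 1 library. Levels below are UMIs of a gene per 1000000 UMIs (CPM) summed over the cells of a cluster, with a 95% interval for counting error only (exact Poisson for levels, Clopper-Pearson for shares, exact binomial for ratios). Since a 3′ UMI counts a transcript once whatever its length, levels of different genes were set side by side on this scale.

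All 5 transcripts were concentrated in the macrophage/monocyte-like cells and cluster 0, which together held 57.8% of cells and 63.5% of UMIs. They held 93.3% of Fcgr1 UMIs, 91.6% of Fcgr2b, 91.1% of Fcgr3, 91.6% of Fcgr4 and 89.3% of Fcer1g. In the macrophage/monocyte-like class as a whole, over all libraries, the adaptor Fcer1g had 5219 CPM, the activating receptor Fcgr3 2016 CPM, the inhibitory Fcgr2b 1145 CPM, Fcgr4 460 CPM and Fcgr1 356 CPM. Fcgr3 was thus the most abundant receptor and Fcgr1 the least, in the class as a whole.

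**Figure D1:**
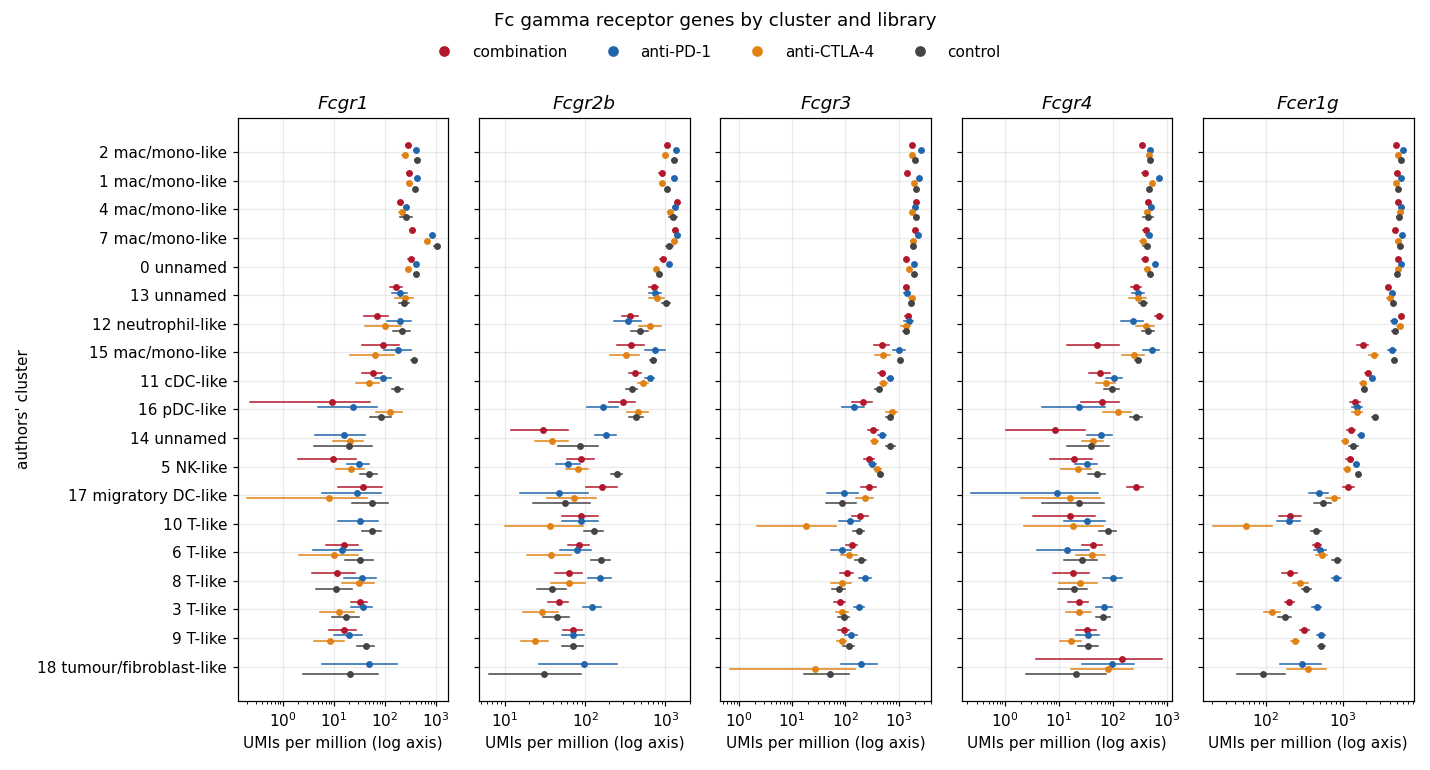
Levels of the 5 genes in each of the authors' 19 clusters, in CPM on a log axis, 1 point per library with its 95% Poisson interval; libraries with no UMI of the gene have no point. Clusters are ordered by pooled Fcgr3. The macrophage/monocyte-like clusters and cluster 0 lie at or near the top in every panel, with neutrophil-like cells beside them for Fcgr3, Fcgr4 and Fcer1g. Cluster 7 stands out for Fcgr1, and NK-like cells and cluster 14 lie above T-like cells for Fcgr3 and Fcer1g but among them for Fcgr1.

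The activating receptor Fcgr1 was unevenly spread over the macrophage clusters. Its pooled level was highest in cluster 7, at 619 CPM, a cluster led by Rsad2, Inhba and the interferon-induced genes Ifit1, Ifit2 and Ifit3. Cluster 1 followed with 372 CPM, cluster 0 with 367 CPM, cluster 2 with 331 CPM, cluster 15 with 314 CPM and cluster 4 with 221 CPM. Neutrophil-like cells had 136 CPM and conventional dendritic cell-like cells 96.5 CPM. Library ranges of neighbours in this order overlapped in 18 of 18 pairs, with cluster 7 at 345 to 1032 CPM and cluster 1 at 296 to 432 CPM. These ranges do not pair clusters within a library, so they do not show whether an order held in each library. The cluster 7 values of anti-PD-1, anti-CTLA-4 and control, given below, lay above the highest library value of cluster 1, and that of the combination did not.

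Fcgr3 was nearly level across clusters 2, 1, 4 and 7, at 2108, 2075, 2020 and 1991 CPM. Neutrophil-like cells had 1456 CPM, below the unnamed cluster 0 at 1788 CPM and above the dividing macrophages of cluster 15 (led by Spc25 and Ube2c) at 976 CPM. Conventional dendritic cell-like cells had 526 CPM, plasmacytoid dendritic cell-like cells 485 CPM, cluster 14 425 CPM and NK cell-like cells 375 CPM. Neighbouring ranges overlapped in 16 of 18 pairs, and the separate pairs were neutrophil-like cells over cluster 15 and NK cell-like cells over the migratory dendritic cell-like cluster 17, at 177 CPM.

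Fcgr4, pooled over libraries, was as high in neutrophil-like cells as in any macrophage cluster. Its pooled level was 520 CPM in neutrophil-like cells, 510 CPM in cluster 1 and 502 CPM in cluster 0, with overlapping counting intervals. Between libraries the neutrophil-like value spread from 234 to 714 CPM. It was 457 CPM in cluster 4, 445 CPM in cluster 2 and 403 CPM in cluster 7, and only 84.2 CPM in conventional dendritic cell-like cells. In pooled level Fcgr1, unlike Fcgr4, was highest in cluster 7.

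The inhibitory Fcgr2b was highest in cluster 4, at 1318 CPM, and in cluster 7, at 1293 CPM, with overlapping intervals. It was 1167 CPM in cluster 2, 1039 CPM in cluster 1 and 928 CPM in cluster 0. Cluster 4 was led by Chil3, Chil1 and Hp. Conventional dendritic cell-like cells had 490 CPM, neutrophil-like cells 431 CPM and plasmacytoid dendritic cell-like cells 351 CPM.

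The adaptor Fcer1g lay between 5101 and 5419 CPM in clusters 2, 4, 0, 12, 1 and 7, so neutrophil-like cells, at 5194 CPM, lay within the range of macrophages. It was 2034 CPM in conventional and 1930 CPM in plasmacytoid dendritic cell-like cells. NK cell-like cells had 1375 CPM and cluster 14 had 1275 CPM. Relative to the summed activating receptors, Fcer1g UMIs were 3.13 times as many in NK cell-like cells (95% interval 2.90 to 3.38) and 2.88 times in conventional dendritic cell-like cells, against 1.84 times in macrophage/monocyte-like cells (1.83 to 1.86). Other receptors also use this chain, among them Ncr1 (NKp46), at 1031 CPM in NK cell-like cells and 2.25 CPM in the macrophage/monocyte-like class.

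The ratio of activating (Fcgr1 + Fcgr3 + Fcgr4) to inhibitory (Fcgr2b) UMIs differed between cell types by more than counting error. Over all libraries it was 4.90 in neutrophil-like cells (4.24 to 5.69), against 2.47 in macrophage/monocyte-like cells (2.44 to 2.51). By library the neutrophil-like ratio was 6.36 in the combination, 5.71 in anti-PD-1, 2.87 in anti-CTLA-4 and 4.30 in control. Its anti-CTLA-4 interval (2.03 to 4.12) overlapped that of macrophage/monocyte-like cells in the same library (2.48 to 2.64). T cell-like cells, not known for these receptors, had a ratio of 2.57 (2.35 to 2.82). The part of RNA leaked from other cells in the ratios of each cell type was not tested. As a mean over cells of each cell's CPM, the neutrophil-like ratio was 8.17. Pooled over libraries it was lowest in conventional dendritic cell-like cells, at 1.44 (1.31 to 1.59), and was 2.00 (1.68 to 2.37) in plasmacytoid dendritic cell-like cells. This order did not hold in each library: plasmacytoid dendritic cell-like cells had 0.97 and conventional ones 1.42 in the combination, and 1.14 and 1.39 in anti-PD-1, with overlapping intervals. Among macrophage clusters it was 2.84 in cluster 1, 2.47 in cluster 2, 2.42 in cluster 15, 2.33 in cluster 7 and 2.05 in cluster 4, and cluster 0 had 2.86. The pooled ratio was 6.36 in cluster 14 (5.06 to 8.10) and 3.44 in NK cell-like cells (2.99 to 3.97), and 1 library weighed on each. In cluster 14 it was 11.6 in the combination, 3.11 in anti-PD-1, 10.6 in anti-CTLA-4 and 8.85 in control, and 10.2 without anti-PD-1. In NK cell-like cells it was 3.5 in the combination, 6.22 in anti-PD-1, 5.53 in anti-CTLA-4 and 2.24 in control, and 5.22 without control.

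**Figure D2:**
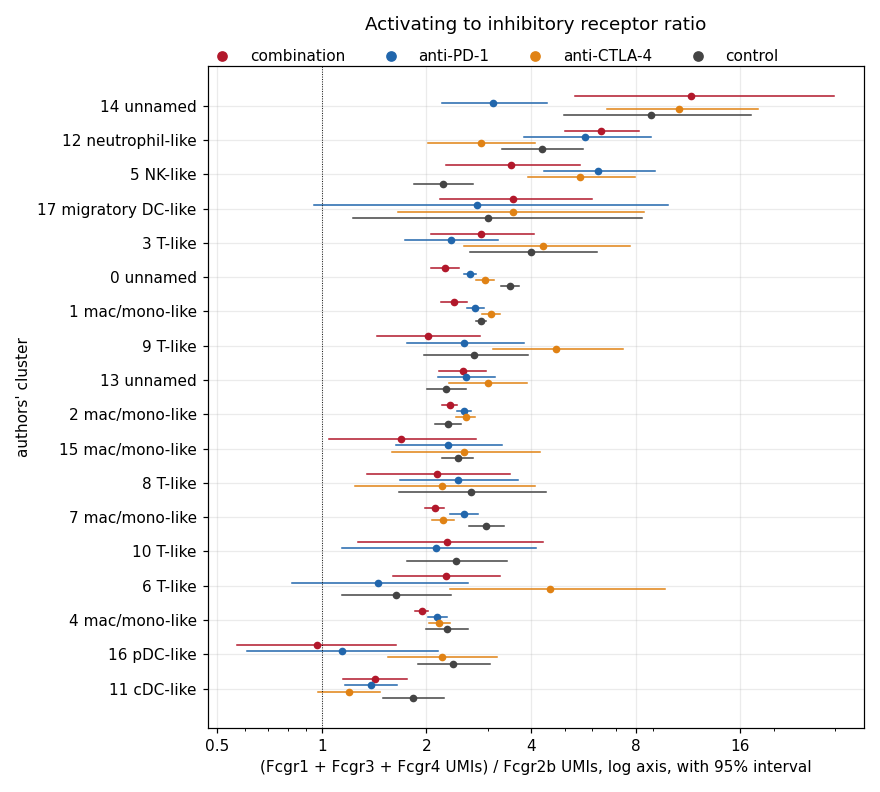
Ratio of Fcgr1 + Fcgr3 + Fcgr4 UMIs to Fcgr2b UMIs on a log axis by cluster (cluster 18, with 7 Fcgr2b UMIs, is left out), 1 point per library with at least 5 Fcgr2b UMIs, with its exact 95% interval. Conventional and plasmacytoid dendritic cell-like cells lie among the lowest, and clusters 14 and 12 among the highest; in clusters 0, 1, 4 and 7 the combination library lies below control.

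With Fcgr3 left out, neutrophil-like cells still lay above macrophages when libraries were pooled. Fcgr1 + Fcgr4 over Fcgr2b was 1.52 (1.28 to 1.82) in neutrophil-like cells, against 0.713 (0.700 to 0.727) in the macrophage/monocyte-like class. By library the neutrophil-like value was 2.18 in the combination, 1.25 in anti-PD-1, 0.778 in anti-CTLA-4 and 1.39 in control. The macrophage/monocyte-like values were 0.548 in the combination, 0.730 in anti-PD-1, 0.768 in anti-CTLA-4 and 0.837 in control. Intervals of both overlapped in anti-PD-1 and anti-CTLA-4. NK cell-like cells had only 0.502 (0.403 to 0.623) on that measure, with 756 of their 885 activating UMIs from Fcgr3. In the neutrophil-like ratio a few cells weigh on the denominator: in the anti-CTLA-4 library, 1 cell held 60.0% of the 45 Fcgr2b UMIs. Taking the mean over cells moved the neutrophil-like ratio to 8.17.

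Counted cell by cell after thinning each cell to 1000 UMIs, most macrophages carried both kinds. UMIs of an activating receptor and of Fcgr2b together were found in 54.8% (53.6 to 56.1) of macrophage/monocyte-like cells, activating alone in 32.7%, Fcgr2b alone in 5.70% and neither in 6.79%. Neutrophil-like cells were mostly activating only, at 63.5% (56.3 to 70.2), with both in 16.2%. In conventional dendritic cell-like cells neither was the largest class, at 47.2%. The other classes there were near even, with both in 16.7%, activating only in 20.6% and Fcgr2b only in 15.5%. A cell with no UMI at this depth may still express the gene.

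**Figure D3:**
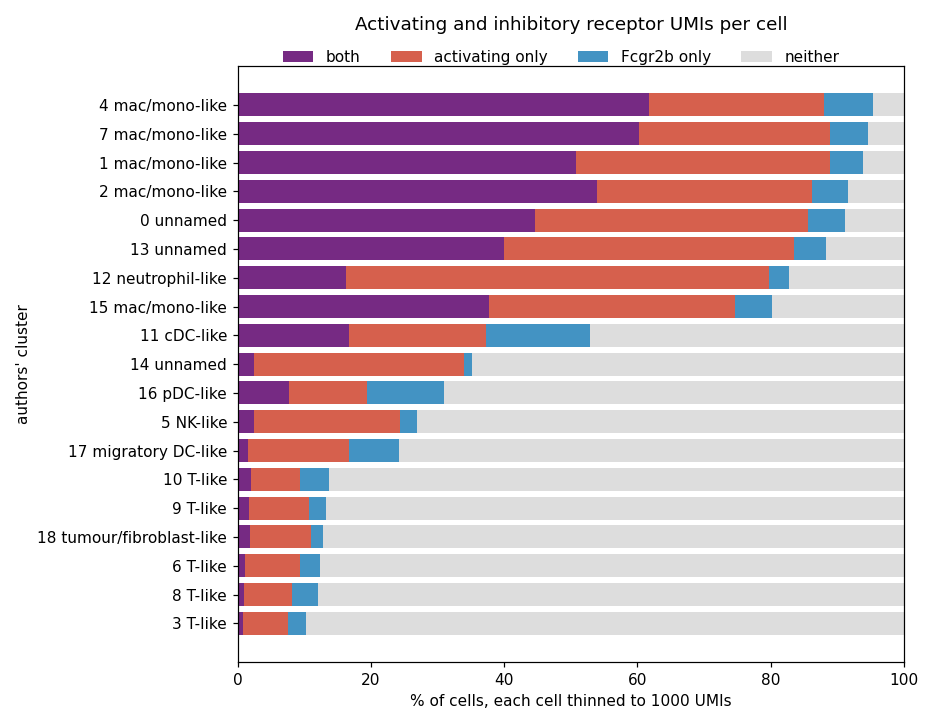
Share of cells per cluster, after thinning each cell to 1000 UMIs, with UMIs of an activating receptor gene and Fcgr2b (both), activating only, Fcgr2b only or neither, all libraries together. Clusters 4, 7, 1 and 2 hold both in over 50% of cells, neutrophil-like cells are mostly activating only, and T-like clusters are at least 86.3% neither.

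NK cells must be read against RNA that leaks from other cells into droplets, which T cells, not known for these receptors, can gauge. T cell-like cells had 113 CPM of Fcgr3, 66.0 CPM of Fcgr2b, 35.3 CPM of Fcgr4 and 22.0 CPM of Fcgr1. After thinning, a Fcgr3 UMI was seen in 22.0% of NK cell-like cells, at a median depth of 1611 UMIs, against 6.19% of T cell-like cells at 1932 UMIs. Among the T cell-like clusters the share ran from 5.25% in cluster 3 to 7.61% in cluster 9. Per 100 UMIs of the macrophage gene Lyz2, NK cell-like cells had 17.2 to 56.5 Fcgr3 UMIs across libraries, T cell-like cells 11.9 to 18.6 and macrophages 11.8 to 14.6. The T cell-like ratio thus lay near that of macrophage RNA, and the lowest NK cell-like library lay above the highest macrophage library.

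To see receptor UMIs away from macrophage RNA, cells with no UMI of Lyz2, C1qa, C1qb, C1qc or Csf1r were taken alone, a choice made after the values were seen. In 419 such NK cell-like cells Fcgr3 had 239 CPM (204 to 278), against 50.5 CPM (42.5 to 59.6) in 1512 such T cell-like cells. Fcer1g had 1105 CPM (1029 to 1185) in these NK cell-like cells, against 140 CPM (127 to 155) in these T cell-like cells. The intervals of the other receptors overlapped between both classes. Fcgr2b had 42.7 CPM (28.8 to 61.0) in NK cell-like cells against 31.7 CPM (25.4 to 39.1) in T cell-like cells. Fcgr4 had 14.2 CPM (6.83 to 26.2) in NK cell-like cells against 11.9 CPM (8.19 to 16.7) in T cell-like cells, and Fcgr1 had 7.12 CPM (2.31 to 16.6) in NK cell-like cells against 6.13 CPM (3.57 to 9.81) in T cell-like cells. Of the 4 receptor genes, Fcgr3 was the one whose interval in NK cell-like cells lay above that in T cell-like cells.

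**Figure D4:**
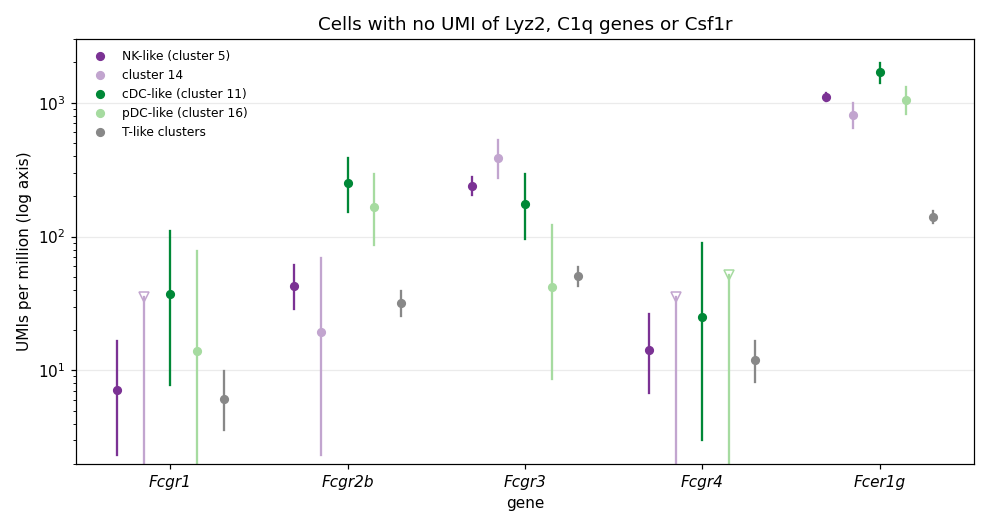
Levels of the 5 genes on a log axis, all libraries together, in cells without any UMI of Lyz2, C1qa, C1qb, C1qc or Csf1r; bars are 95% Poisson intervals and open triangles mark the upper limit where no UMI was seen. NK-like cells and cluster 14 lie above T-like cells for Fcgr3 and Fcer1g, and conventional dendritic cell-like and plasmacytoid dendritic cell-like cells lie above them for Fcgr2b and Fcer1g.

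Cluster 14, led by granzymes, also carried Fcgr3 above the T cell level. Its 23 cells without macrophage UMIs had 384 CPM of Fcgr3 (275 to 524) and no UMI of Fcgr1 or Fcgr4 (each up to 35.5 CPM by the exact upper bound). Perforin (Prf1), the pore protein of cytotoxic granules, had 287 CPM in cluster 14 and 114 CPM in NK cell-like cells. In the authors' second table, of lymphoid cells, the Klra5- and Cd7-led subcluster 6 had 904 CPM of Fcer1g but 139 CPM of Fcgr3, whereas the Klrb1c- and Ncr1-led subcluster 0 had 1361 CPM of Fcer1g and 396 CPM of Fcgr3. Adaptor and receptor thus parted in that subcluster, where Fcgr3 lay within the 69.2 to 177 CPM of the T cell-like subclusters.

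Dendritic cells carried the inhibitory receptor above the T cell level when cells with macrophage UMIs were left out. In 33 conventional dendritic cell-like cells without macrophage UMIs Fcgr2b had 250 CPM (153 to 386), and in 30 plasmacytoid dendritic cell-like cells 167 CPM (86.4 to 292), against 31.7 CPM in T cell-like cells. Fcgr3 had 175 CPM (95.6 to 293) in those conventional and 41.8 CPM (8.62 to 122) in those plasmacytoid dendritic cell-like cells, against 50.5 CPM in T cell-like cells. The plasmacytoid value overlapped the T cell value.

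The Foxp3-led T cell-like cells of cluster 10, of the kind a CTLA-4 antibody could coat, were also taken without cells with macrophage UMIs. No receptor then had an interval wholly above that of T cell-like cells, a class that includes cluster 10. Cluster 10 had 594 CPM of Ctla4, against 228 CPM in all T cell-like cells, with 566 CPM in the combination library, 289 CPM in anti-PD-1, 266 CPM in anti-CTLA-4 and 826 CPM in control. Its Fcgr3 was 149 CPM over all cells, and 35.4 CPM (16.2 to 67.2) in its 159 cells without macrophage UMIs. In those 159 cells Fcgr2b had 63.0 CPM (36.0 to 102), from 16 UMIs. That value lay above the T cell-like one given above, with overlapping intervals. No interval was taken for the ratio between them, so a higher Fcgr2b in cluster 10 was not tested.

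In macrophage/monocyte-like cells, Fcgr1 was the member farthest from control in the combination and in anti-CTLA-4, by the log2 ratio of CPM. It had 263 CPM in the combination library, 415 CPM in anti-PD-1, 325 CPM in anti-CTLA-4 and 425 CPM in control. The combination lay 0.69 below control on the log2 scale (95% interval -0.78 to -0.61), anti-CTLA-4 0.39 below (log2 ratio -0.39, -0.47 to -0.30) and anti-PD-1 at control (log2 ratio -0.03, -0.12 to 0.05). No member passed 2-fold in this class in any of the 3 comparisons, which share the control library. Of 10223 genes with at least 20 UMIs, 3.69% were 2-fold higher and 10.4% 2-fold lower in the combination, so a 2-fold difference is common between these libraries. The shares higher and lower were 3.24% and 7.18% for anti-PD-1, and 3.79% and 8.07% for anti-CTLA-4.

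The median gene of the class lay at a log2 ratio of -0.21 for the combination, -0.12 for anti-PD-1 and -0.16 for anti-CTLA-4. Median-of-ratios scaling, which sets the typical gene level between libraries, added 0.17 to ratios of the combination, 0.09 to those of anti-PD-1 and 0.13 to those of anti-CTLA-4. On that scale Fcgr1 still lay below control in the combination, at -0.52, and in anti-CTLA-4, at -0.26.

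Fcgr3 had 1893 CPM in the combination, 2372 CPM in anti-PD-1, 1840 CPM in anti-CTLA-4 and 2004 CPM in control. Its log2 ratios were -0.08 for the combination, 0.24 for anti-PD-1 and -0.12 for anti-CTLA-4, and under median-of-ratios scaling the combination (0.09) and anti-CTLA-4 (0.01) turned positive. Fcgr4 had 399 CPM in the combination, 554 CPM in anti-PD-1, 464 CPM in anti-CTLA-4 and 446 CPM in control. Its combination log2 ratio of -0.16 became 0.01 with that scaling, so no direction can be given for Fcgr4 in the combination. Fcer1g had 4914 CPM in the combination, 5784 CPM in anti-PD-1, 5098 CPM in anti-CTLA-4 and 5187 CPM in control. Its log2 ratio of -0.08 for the combination and -0.02 for anti-CTLA-4 also turned positive under that scaling, at 0.09 for the combination and 0.11 for anti-CTLA-4, while 0.16 for anti-PD-1 became 0.25. In the anti-PD-1 library Fcgr2b, Fcgr3, Fcgr4 and Fcer1g were all above control on both scales.

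Fcgr2b had 1206 CPM in the combination, 1326 CPM in anti-PD-1, 1029 CPM in anti-CTLA-4 and 1041 CPM in control. The log2 ratio to control was 0.21 (0.16 to 0.26) for the combination, 0.35 (0.30 to 0.40) for anti-PD-1 and -0.02 (-0.07 to 0.03) for anti-CTLA-4. Different clusters held most of the class in each library: cluster 1 held 12.9% of class UMIs in the combination, 26.0% in anti-PD-1, 32.6% in anti-CTLA-4 and 71.1% in control. Cluster 4, with the highest Fcgr2b, held 38.6% in the combination, 22.7% in anti-PD-1, 21.3% in anti-CTLA-4 and 3.45% in control. With the cluster makeup held at that of control, the Fcgr2b log2 ratio of the combination turned to -0.22, so its direction in the class rests on the makeup. Fcgr1 in the combination stayed below control in each of the 5 clusters of the class.

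**Figure D5:**
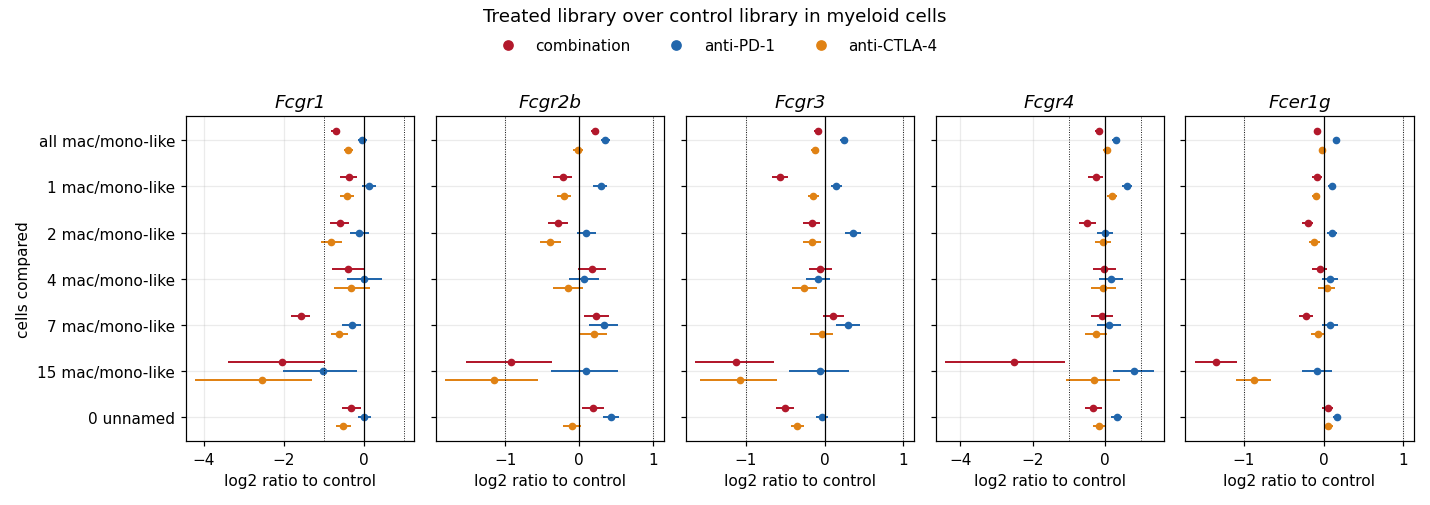
Log2 ratio of each treated library to control for the 5 genes in all macrophage/monocyte-like cells, in each of the class's clusters and in cluster 0, with exact 95% intervals for counting error; dotted lines mark 2-fold. Fcgr1 and Fcgr4 of the combination lie below 0 in all rows, Fcgr1 far below in clusters 7 and 15 and Fcgr4 in cluster 15, and Fcgr2b and Fcgr4 of anti-PD-1 lie above 0 in all rows; median-of-ratios scaling turned Fcgr4 of the combination to 0.0081 in the class.

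Within cluster 7, Fcgr1 had 345 CPM in the combination, 836 CPM in anti-PD-1, 676 CPM in anti-CTLA-4 and 1032 CPM in control. The combination lay past 2-fold, at a log2 ratio of -1.58 (-1.79 to -1.37), and anti-CTLA-4 at -0.61 (-0.80 to -0.42). In this cluster 11.7% of 4990 genes were 2-fold lower in the combination. Of the 10 genes that lead cluster 7, the interferon-induced Ifit1, Ifit2, Ifit3, Isg15 and Rsad2 were also lower in the combination, with log2 ratios of -2.03, -2.20, -1.77, -1.31 and -0.44, and the other 5, among them Inhba at 2.31, were higher. Their part in the Fcgr1 difference was not tested. In the other macrophage clusters and cluster 0, Fcgr1 of the combination had log2 ratios of -0.37 in cluster 1, -0.60 in cluster 2, -0.40 in cluster 4 (-0.78 to 0.01) and -0.31 in cluster 0. Cluster 15, with only 14 cells in the combination, had -2.05 (-3.38 to -0.99).

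The activating to inhibitory ratio of macrophage/monocyte-like cells, which no scaling can move, was 2.12 (2.06 to 2.18) in the combination, 2.52 (2.45 to 2.59) in anti-PD-1, 2.56 in anti-CTLA-4 and 2.76 in control. Its log2 ratio to control was -0.38 (-0.44 to -0.33) for the combination, -0.13 (-0.19 to -0.08) for anti-PD-1 and -0.11 (-0.17 to -0.05) for anti-CTLA-4. With the makeup held at that of control these became -0.26 for the combination, -0.04 for anti-PD-1 and 0.07 for anti-CTLA-4, so the anti-CTLA-4 direction also rests on the makeup. Cluster by cluster, with cluster 0 included, the combination was below control beyond counting error in 4 of 6: cluster 0, with 2.26 in the combination and 3.49 in control, cluster 1, with 2.40 in the combination and 2.87 in control, cluster 4, with 1.94 in the combination and 2.29 in control, and cluster 7, with 2.11 in the combination and 2.98 in control. In cluster 2 it was 2.33 in the combination and 2.30 in control.

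Fcgr4 of neutrophil-like cells lay above control in the combination and below it in anti-PD-1. It had 714 CPM (605 to 837) in the combination from 116 cells, 234 CPM in anti-PD-1 from 38 cells, 405 CPM in anti-CTLA-4 from 41 cells and 452 CPM in control from 53 cells. The log2 ratio to control was 0.66 (0.24 to 1.10) for the combination and -0.95 (-1.77 to -0.20) for anti-PD-1. No single cell held more than 11.8% of the Fcgr4 UMIs in the combination library. Fcgr1 of these cells had 70.0 CPM in the combination, 197 CPM in anti-PD-1, 101 CPM in anti-CTLA-4 and 216 CPM in control, from 15 UMIs in the combination and 32 in control. Its log2 ratio of -1.62 (-2.61 to -0.70) for the combination was past 2-fold, as were 21.5% of genes of the cluster in that direction.

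Conventional dendritic cell-like cells had 58.0 CPM of Fcgr1 in the combination, 92.7 CPM in anti-PD-1, 47.9 CPM in anti-CTLA-4 and 176 CPM in control. All treated libraries lay below control, as in macrophages for the combination and anti-CTLA-4, but on 21 UMIs in the combination, 34 in anti-PD-1, 16 in anti-CTLA-4 and 70 in control. Their Fcgr2b had 419.5 CPM in the combination, 641 CPM in anti-PD-1, 530 CPM in anti-CTLA-4 and 382 CPM in control, with a log2 ratio of 0.75 (0.45 to 1.05) for anti-PD-1. Their activating to inhibitory ratio was 1.42 in the combination, 1.39 in anti-PD-1, 1.20 in anti-CTLA-4 and 1.83 in control.

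In NK cell-like cells Fcgr3 was lower in the combination than in control. It had 281 CPM in the combination, 320 CPM in anti-PD-1, 400 CPM in anti-CTLA-4 and 454 CPM in control, with log2 ratios of -0.70 (-1.06 to -0.35) for the combination, -0.51 (-0.78 to -0.23) for anti-PD-1 and -0.18 (-0.45 to 0.08) for anti-CTLA-4. Leaving out the 3% of cells with the most UMIs moved these to -0.31 for the combination, 0.01 for anti-PD-1 and 0.04 for anti-CTLA-4. Without those cells Fcgr3 had 215 CPM in the combination, 268 CPM in anti-PD-1, 273 CPM in anti-CTLA-4 and 266 CPM in control. In NK cell-like cells without macrophage UMIs the intervals of all libraries overlapped, at 179 CPM (113 to 268) in the combination and 292 CPM (219 to 381) in control. Fcgr2b of NK cell-like cells had 88.3 CPM in the combination, 61.6 CPM in anti-PD-1, 80.5 CPM in anti-CTLA-4 and 247 CPM in control, but 3 cells held 51.0% of the control UMIs. The macrophage transcript Lyz2 in the same cells had 952 CPM in the combination, 567 CPM in anti-PD-1, 1507 CPM in anti-CTLA-4 and 2641 CPM in control, and C1qa had 233 CPM in the combination, 87.3 CPM in anti-PD-1, 254 CPM in anti-CTLA-4 and 517 CPM in control; their part in the Fcgr2b values was not tested. The Fcgr2b value of the combination was past 2-fold lower, as were 8.87% of genes in NK cell-like cells. Cluster 17 showed the same weight of single cells: its Fcgr4 had 266 CPM in the combination and 23.9 CPM in control, with 77.8% of the combination UMIs in 1 cell.

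Beyond the receptors, the pathway was followed in macrophage/monocyte-like cells with lists of known genes, each described by its count past 2-fold beside the shares over all genes given above, with log2 ratios to control. Of 4 ITAM adaptors, 0 were past 2-fold in the combination and in anti-PD-1, and 1 was higher in anti-CTLA-4: Cd247, the ζ chain of T cells, at 2.37 on 49 UMIs in anti-CTLA-4 and 13 in control, although it was found in 0.78% of cells in anti-CTLA-4 and 0.79% in control. Tyrobp (DAP12), the adaptor of other myeloid and NK receptors, had -0.17 in the combination, -0.14 in anti-PD-1 and -0.08 in anti-CTLA-4, and Hcst (DAP10) had 0.57 in the combination, 0.26 in anti-PD-1 and 0.37 in anti-CTLA-4.

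Of 17 activating signalling genes, 0 were higher and 1 was lower past 2-fold in the combination, 0 were past 2-fold in anti-PD-1, and 2 were higher and 0 lower in anti-CTLA-4. Their medians were -0.33 in the combination, -0.16 in anti-PD-1 and -0.29 in anti-CTLA-4, each below the median of all genes given above. Syk, the kinase that reads the ITAM, lay above control in each, at 0.93 in the combination, 0.85 in anti-PD-1 and 1.01 in anti-CTLA-4. Lyn, a Src-family kinase upstream of Syk, lay below control, at -1.10 in the combination, -0.57 in anti-PD-1 and -0.49 in anti-CTLA-4. The adaptor Gab2 had 1.09 in anti-CTLA-4. Rac2, a GTPase of phagocytosis, had -0.54 in the combination, and Prkcd, a protein kinase C, had 0.48.

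Of 8 inhibitory signalling genes, 0 were past 2-fold in any of the 3 comparisons, with medians of -0.06 in the combination, 0.10 in anti-PD-1 and -0.03 in anti-CTLA-4. Inpp5d, the phosphatase recruited by FcγRIIB, had -0.88 in the combination, -0.52 in anti-PD-1 and -0.43 in anti-CTLA-4. Ptpn6 (SHP-1), the phosphatase of other ITIM receptors, had -0.30 in the combination, 0.15 in anti-PD-1 and -0.06 in anti-CTLA-4, and Cblb, a ubiquitin ligase, had 0.98 in the combination on 61 UMIs there and 33 in control.

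Of 10 other myeloid ITIM receptors measured, 0 were higher past 2-fold in any library, and 4 were lower past 2-fold in the combination, 2 in anti-PD-1 and 3 in anti-CTLA-4. Cd72, an inhibitory lectin that leads cluster 1, had -3.35 in the combination, -1.73 in anti-PD-1 and -1.47 in anti-CTLA-4. Siglece, a sialic acid receptor, had -3.04 in the combination, -2.91 in anti-PD-1 and -2.81 in anti-CTLA-4. Cd33 had -1.37 and Clec4a2 -1.23 in the combination. The share of cluster 1 in the class was lower in each treated library, as given above, and its part in these values was not tested. Sirpa, the receptor of the phagocytosis checkpoint CD47, had -0.01 in the combination, and Lilrb4a had 0.20, so these ITIM receptors and Fcgr2b did not follow those 4 genes.

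Of 5 measured partners of the Fcer1g chain, 0 were past 2-fold in the combination and in anti-PD-1, and 1 was higher in anti-CTLA-4. That gene was the lectin receptor Clec4e (Mincle), with 0.89 in the combination, 0.86 in anti-PD-1 and 1.08 in anti-CTLA-4. Clec4e had 649 CPM in cluster 7, 382 CPM in cluster 4 and 58.0 CPM in cluster 1, and the part of the cluster makeup in its ratios was not tested. Its relative Clec4d had 0.82 in the combination, 0.17 in anti-PD-1 and 0.46 in anti-CTLA-4. Clec4n (Dectin-2) had -0.32 in the combination, 0.01 in anti-PD-1 and -0.30 in anti-CTLA-4.

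Of 5 other Fc receptors with enough UMIs, 1 was higher and 2 were lower past 2-fold in the combination, 2 were higher and 2 lower in anti-PD-1, and 0 were higher and 2 lower in anti-CTLA-4. Fcrla, an intracellular Fc receptor-like protein, had 1.47 in the combination, 1.96 in anti-PD-1 and 0.42 in anti-CTLA-4. Fcgrt, the neonatal Fc receptor that recycles IgG, had -0.11 in the combination, 1.06 in anti-PD-1 and 0.64 in anti-CTLA-4. The genes lower in the combination were rare: Fcer1a had 0 UMIs in the combination and 21 in control, and Fcrls had 2 UMIs in the combination and 19 in control.

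Of 13 phagocyte and killing effectors measured in the combination, 1 was higher and 0 were lower past 2-fold: Nos2, inducible nitric oxide synthase, at 2.94, with 2.35 in anti-PD-1 and 3.00 in anti-CTLA-4. Pooled over libraries Nos2 had 217 CPM in cluster 7, 77.9 CPM in cluster 4 and 2.56 CPM in cluster 1. Within cluster 7 its combination log2 ratio was 1.40 (0.88 to 1.96). The part of the cluster makeup, given above, in its class ratios was not tested. The NADPH oxidase subunit genes Cybb and Cyba had 0.60 and 0.49 in the combination, and Tnf, an inflammatory cytokine, had 0.99. Of 7 genes of antibody targets and regulatory T cells, 1 was higher and 2 were lower past 2-fold in the combination, while 1 was lower in anti-PD-1 and 3 were lower in anti-CTLA-4. None of these 7 genes had more than 60 UMIs in the class in the combination or control library.

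Across the 19 clusters, the gene whose level followed Fcgr3 most closely of 5352 compared was Fcer1g (Pearson r = 0.98 of log2(CPM + 1), a description with no test, since clusters share libraries). With a pseudocount of 10 Itgam came first (0.98) and Fcer1g had rank 2, and by Spearman's rho Fcer1g had rank 7 (0.96). For Fcgr1 the closest was Ms4a6d (r = 0.98), followed by Dab2, AF251705, Msr1 and Ms4a6c. For Fcgr2b it was AF251705 (0.98), followed by Dpep2, Ms4a6d, Ms4a6c and Ctss. For Fcgr4 it was Pilra (0.98), followed by Pla2g7, Lst1, Slc31a2 and Tlr2, and for Fcer1g, after Fcgr3, it was Clec4n (0.96), then Itgam and Creg1. Among the genes most like Fcgr1, Fcgr2b had rank 6 and Fcgr4 rank 25, so the inhibitory receptor lay closer to Fcgr1 across clusters than the activating Fcgr4 did on this measure.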

How the data were processed

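Live CD45+ cells of 4 tumour libraries were counted on a 10x Genomics platform with a 3′ kit, per the labels' protocols. The matrices the authors deposited hold whole-number UMI counts, not normalized, for each gene in each barcode. Cell Ranger, Seurat and the mm10 build are named in the submitters' processing notes, without versions. The authors also deposited tables of listed cells with cluster numbers and library names (other values, used to group cells). Counts were summed per cluster and library and divided by the summed UMIs (CPM) with Python 3.11.15, numpy 2.4.6, pandas 2.3.3 and scipy 1.17.1. The interval code was tested on simulated counts with known changes. Shares of cells were taken after thinning to 1000 UMIs, which left out 322 cells of the combination, 195 of anti-PD-1, 123 of anti-CTLA-4 and 11 of control. A gene was called past 2-fold with at least 20 UMIs in the compared libraries together; with 1 library a group no test was made. Intervals cover counting error only; that of a ratio between 2 activating to inhibitory ratios is a normal approximation on the log scale.

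No doublet caller was run; cells with UMIs of both T cell and macrophage genes, or the 3% with the most UMIs, were left out as alternatives. Cluster names were given here from marker genes, so they need not match the authors' names. Named genes were the 5 members, per list the 4 genes with the most UMIs and the 2 with the largest ratio in each comparison, Ctla4, Pdcd1, Foxp3, Ncr1 and Prf1, and the 5 genes most like each member, of which 1 is not reported here; cluster markers and the leading genes of cluster 7 were added after their values were seen. Members and lists were chosen with earlier results of these data known. Promoter sequences came from RefSeq, and transcripts and positions from GENCODE.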

Additional observations from a re-analysis of the deposited data

Results flagged for a closer look

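Several members lay above control in 1 cell type and below it in another under the same treatment, with both counting intervals clear of 0. These differences of log2 ratios were not tested, since each group was 1 library. In the combination, Fcgr2b had 0.21 in macrophage/monocyte-like cells and -1.49 in NK cell-like cells, a difference of 1.70. With the cluster makeup held at that of control, the macrophage/monocyte-like value turned to -0.22. Fcgr4 had 0.66 in neutrophil-like cells and -1.41 in NK cell-like cells, a difference of 2.07, and Fcer1g had 0.29 in neutrophil-like cells and -0.36 in NK cell-like cells, a difference of 0.65.

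In the anti-PD-1 library, Fcgr2b had 0.75 in conventional dendritic cell-like cells and -2.01 in NK cell-like cells, a difference of 2.75. Fcgr3 had 0.69 in conventional dendritic cell-like cells and -0.51 in NK cell-like cells, a difference of 1.20. Without the 3% of cells with the most UMIs, the NK cell-like value turned to 0.012. Fcgr4 had 0.33 in cluster 0 and -0.95 in neutrophil-like cells, a difference of 1.28. In the anti-CTLA-4 library, Fcgr2b had 0.47 in conventional dendritic cell-like cells and -1.62 in NK cell-like cells, a difference of 2.09, and Fcer1g had 0.23 in neutrophil-like cells and -0.47 in NK cell-like cells, a difference of 0.70. Every NK cell-like value of Fcgr2b shares the control library in which 3 cells held 51.0% of the UMIs. The macrophage transcript Lyz2 in NK cell-like cells was also lower in treated libraries, at 952 CPM in the combination, 567 CPM in anti-PD-1, 1507 CPM in anti-CTLA-4 and 2641 CPM in control, and its part in the NK cell-like values was not tested. The NK cell-like Fcgr4 value of the combination rests on 6 UMIs in the combination and 31 in control. In cells without macrophage UMIs, the NK cell-like intervals of Fcgr2b and Fcgr4 overlapped those of T cell-like cells, as given above.

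The 127 barcodes in the matrices that the authors' table does not list also carried these transcripts. They had 247 CPM of Fcgr3, 727 CPM of Fcer1g, 117 CPM of Fcgr2b, 25.5 CPM of Fcgr1 and 25.1 CPM of Fcgr4, with a median of 3396 genes per barcode.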

How the results depend on the processing

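Each of 66 results was recomputed under other choices, giving 316 values. Values were set against the result's counting interval. Counts of list genes past a fold and of shared most-like genes were set against a fixed band instead. Of the 316 values, 201 stayed within the interval or band, 103 left it with the same sign and 12 left it with the other sign. Of these 12, 9 were for results whose interval did not include 0. Another 4 changed sign within an interval that includes 0. For the log2 ratios to control in macrophage/monocyte-like cells, median-of-ratios scaling gave Fcgr1 -0.52 in the combination, 0.056 in anti-PD-1 and -0.26 in anti-CTLA-4, and Fcgr2b 0.38 in the combination, 0.44 in anti-PD-1 and 0.11 in anti-CTLA-4. It turned Fcgr3 (0.090), Fcgr4 (0.0081) and Fcer1g (0.093) of the combination and Fcgr3 (0.0076) and Fcer1g (0.11) of anti-CTLA-4 positive; by its construction it adds 1 constant to all genes of a library. Thinning gave Fcgr1 of the combination -0.80, and Fcgr2b 0.055 and Fcer1g 0.0012 in anti-CTLA-4. The mean over cells gave Fcgr2b of the combination 0.13. With cluster makeup held at that of control, Fcgr2b was -0.22 in the combination, 0.24 in anti-PD-1 and -0.25 in anti-CTLA-4, and Fcgr1 was -0.58 in anti-CTLA-4.

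The activating to inhibitory ratio after thinning was 2.04 in the combination and 2.89 in control. Its log2 difference for the combination was -0.50 after thinning, -0.61 with Fcgr1 and Fcgr4 only, -0.29 with Fcgr3 only and -0.26 with makeup held, where anti-CTLA-4 turned to 0.066. In NK cell-like cells, Fcgr3 of anti-PD-1 turned to 0.012 without the 3% of cells with the most UMIs. Apart from scaling, the cause was not tested. The NK cell-like activating to inhibitory ratio was 5.70 after thinning, 5.21 by the mean over cells and 6.54 without the 3% of cells with the most UMIs, and the neutrophil-like one 7.23 after thinning. Of the 5 genes most like each member, another pseudocount or Spearman's rho shared 2 to 5 for Fcgr1 and Fcer1g, 1 to 5 for Fcgr2b, 1 to 3 for Fcgr3 and 1 to 4 for Fcgr4. Leaving out each library in turn, chosen after the values were seen, gave an activating to inhibitory ratio of 2.99 to 5.22 in NK cell-like cells and 5.14 to 10.2 in cluster 14. Leaving out the 2070 cells with T cell and macrophage UMIs changed no sign. No paired analysis was possible because each group had 1 library. Depth limits single cells most: a cell without a UMI may express the gene.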
